A study of Mus musculus with 6 samples.

Results

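The genes described here are 7 members of the Siglec family: Siglecf, Siglece, Siglec1, Siglecg, Siglech, Cd33 and Cd22. They were taken by name, as every probe set whose single gene symbol in the platform annotation is one of these symbols. This gave 10 probe sets out of 34945 with a single symbol, and 7 genes out of 18193. The probe sets came from expression arrays of myeloid cells sorted from femur and tibia marrow of HdcGFP reporter mice on a C57BL/6 background, in which green fluorescent protein reports activity of Hdc, the gene of the histamine-forming enzyme histidine decarboxylase. All sorted cells carried the reporter at positive or high level together with CD11b, an integrin of myeloid cells, and the labels name no treatment. Gr1hi cells (3 arrays) stained strongly for Gr1, an antigen of Ly6G and Ly6C, and Gr1lo cells (3 arrays) stained weakly. The labels give no age and do not say whether animals were pooled. Differences are Gr1hi minus Gr1lo on the log2 scale of the deposited values.

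Siglecs are cell surface lectins that bind sialic acids, the sugars that cap many glycans on cell surfaces and secreted proteins. Most of them carry immunoreceptor tyrosine-based inhibitory motifs in their cytoplasmic tails, which recruit phosphatases such as SHP-1 and dampen activating receptors. Others lack such motifs and signal through the adaptor DAP12 or act mainly in adhesion. In mice, CD33 and Siglec-E are found on neutrophils and other myeloid cells, Siglec-F on eosinophils and alveolar macrophages, CD22 and Siglec-G on B cells, Siglec-H on plasmacytoid dendritic cells and sialoadhesin, the product of Siglec1, on macrophages.

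Several neutrophil genes were abundant in both groups, and S100a8, which encodes a calcium-binding protein of neutrophils, read 14.91 to 14.96 in Gr1hi cells and 14.82 to 14.92 in Gr1lo cells. Of 12 neutrophil markers tested, 4 (Mmp8, Mmp9, Csf3r and Cxcr2) were higher in Gr1hi cells and 2, the azurophil granule genes Elane and Mpo, were lower (differences -6.99 and -3.98, limma adjusted p = 1.98e-07 and 1.22e-06). The value table holds no detection calls, so low values were set beside 3 control probe sets for transcripts that mouse cells lack, which reached at most 2.77. All samples are labelled female, yet the Y-linked Eif2s3y lay between 9.02 and 10.66 on all 6 arrays. Xist stood at 10.14 and 10.95 on the Gr1hi and Gr1lo arrays numbered 3, and at 2.43 or below on the other 4 arrays. The description of Gr1lo replicate 3 writes its gate as HdcGFP-CD11b+Gr1lo, unlike its title and source, and Hdc stood at 10.75 to 10.99 on the 3 Gr1lo arrays. Values without both arrays numbered 3 are given where they change the call of a Siglec, sialic acid, signalling or ligand carrier gene. The labels do not say whether replicates came from separate animals, so p-values measure the spread between these samples, which may be technical.

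Cd33 and Siglece were higher and Siglecg was lower in Gr1hi cells. Siglecf stood far above the absent-transcript controls in both groups and was not called, and the direction of its difference depended on the scaling. Siglech, Siglec1 and Cd22 lay at the level of absent transcripts. By limma with an adjusted p under 0.05, 4 of the 7 genes were called higher and 1 lower. Of all 12739 genes tested, 24.6% were called higher and 31.8% lower, so calls of either kind were common on these arrays. The median difference of the 7 genes was 0.29, beside 0.03 over all genes tested, but this median is the value of Siglec1, a gene at the level of absent transcripts, and nothing is read from it. All 7 passed the filter on low values, which asked for at least 3 of 6 arrays above the 40th percentile of that array, but Siglec1 passed through its Gr1hi arrays alone and Cd22 through its Gr1hi arrays and 1 Gr1lo array. Their calls are therefore no support for a change. With each probe set tested on its own, 4 of the 7 probe sets that passed were called higher and 1 lower, where 26.2% and 30% of all probe sets were. None of the 10 probe set names ends in _x_at or _s_at, suffixes that the array's maker gives to probe sets shared between similar transcripts. The brightest Siglec1 probe set ends in _a_at, a suffix that was not part of this check.

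**Figure D1:**
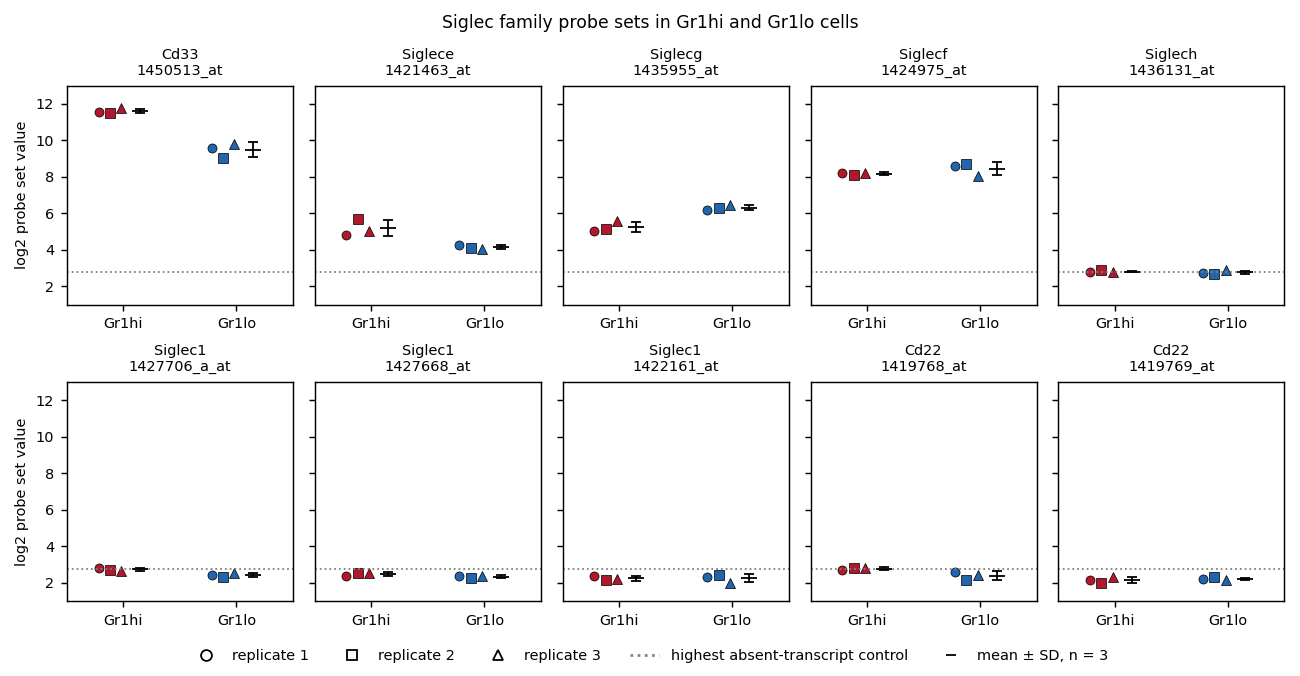
Each panel shows 1 probe set of a Siglec gene, with the log2 value of each array as a point (shape gives the replicate number), the mean and SD of 3 arrays beside it, and a dotted line at 2.77, the highest value of the absent-transcript controls. Cd33 and Siglece stand higher in Gr1hi, Siglecg stands lower, the Siglecf arrays overlap, and the 6 probe sets of Siglech, Siglec1 and Cd22 lie at or near the dotted line.

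Cd33 encodes a Siglec whose human counterpart is a marker of myeloid cells and which in mice is found mainly on granulocytes. Its probe set read 11.55, 11.52 and 11.75 in Gr1hi cells, and 9.60, 9.03 and 9.82 in Gr1lo cells. The groups did not overlap, which was the case for 65.5% of all genes tested, and the lowest array was Gr1lo replicate 2. Cd33 averaged 11.61 ± 0.13 in Gr1hi cells and 9.48 ± 0.41 in Gr1lo cells (SD, n = 3 each), a 4.37-fold higher level (difference 2.13, SE 0.18, limma adjusted p = 9.01e-06). The call held in all 20 alternatives tried, with differences between 1.87 and 2.80. In bulk samples such as these, fewer cells of a type and less RNA per cell cannot be told apart. Of 8 monocyte markers tested 3 were higher and 1 lower in Gr1hi cells, and the mean log2 level of the list was 5.85 to 7.04 in Gr1hi and 4.95 to 6.15 in Gr1lo arrays. In both groups the upper value was that of the array numbered 3. Ccr2 read 7.29 and 6.07 on the Gr1hi and Gr1lo arrays numbered 3, and 3.98 to 4.91 on the others. Csf1r in Gr1hi cells was instead highest on replicate 1 (11.84). The part of monocytes in the Cd33 values was not tested.

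Siglece encodes an inhibitory Siglec of neutrophils and macrophages. It read 4.83, 5.67 and 5.04 in Gr1hi cells, and 4.29, 4.12 and 4.04 in Gr1lo cells. Every Gr1hi array lay above every Gr1lo array, and Gr1hi replicate 2 stood above the other two. The means were 5.18 ± 0.44 in Gr1hi cells and 4.15 ± 0.12 in Gr1lo cells (SD, n = 3 each), a 2.05-fold difference (1.03, SE 0.24, limma adjusted p = 0.00425). The call was not made against a 1.5-fold change (adjusted p = 0.136), and it held in the other 19 alternatives.

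Siglecg encodes an inhibitory Siglec best known from B cells, where it dampens calcium signals, and for binding CD24. It was the 1 member called lower in Gr1hi cells. Its values were 5.03, 5.15 and 5.58 in Gr1hi cells, and 6.17, 6.28 and 6.46 in Gr1lo cells. The groups did not overlap. Siglecg averaged 5.25 ± 0.29 in Gr1hi cells and 6.30 ± 0.14 in Gr1lo cells (SD, n = 3 each), a 2.07-fold lower level (difference -1.05, SE 0.21, limma adjusted p = 0.00188). The arrays were also put on 2 other scales, one median-centred (the kept genes of every array share a median) and one control-centred (its spiked hybridization controls share a mean). On the median-centred scale the difference was -0.37 (adjusted p = 0.115), and against a 1.5-fold change the adjusted p was 0.0845.

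B cell markers did not move together. Of 14 such markers measured, 10 were tested, 5 were higher and 1 lower in Gr1hi cells, and Blk, Vpreb3 and Rag1 stayed at or below 2.77 on every array. The mean log2 level of the list was 3.38 to 3.62 in Gr1hi arrays and 3.23 to 3.28 in Gr1lo arrays. The marker that was lower was Cd79b, a chain of the B cell receptor complex, at 4.63 ± 0.34 in Gr1hi cells and 5.36 ± 0.22 in Gr1lo cells (SD, n = 3 each; limma adjusted p = 0.0192). Its partner Cd79a read 2.73, 2.85 and 2.93 in Gr1hi cells, and 2.67, 2.33 and 2.59 in Gr1lo cells. Cd79a was called higher (limma adjusted p = 0.0393), though only 2 of its values exceeded 2.77. It passed the filter through its Gr1hi arrays and 1 Gr1lo array, so its call is no support for a change. The other markers called higher were Ms4a1, Ebf1, Fcer2a and Bank1. Bank1 averaged 8.46 in Gr1hi cells and 8.02 in Gr1lo cells (limma adjusted p = 0.0336). The part of B cells in the Siglecg values was not tested.

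Siglecf encodes an inhibitory Siglec that in mice marks eosinophils. It read 8.20, 8.09 and 8.24 in Gr1hi cells, and 8.62, 8.69 and 8.06 in Gr1lo cells, all far above the absent-transcript controls. The groups overlapped because Gr1lo replicate 3 was the lowest of all arrays. Means were 8.17 ± 0.08 in Gr1hi cells and 8.46 ± 0.34 in Gr1lo cells (SD, n = 3 each; difference -0.28, SE 0.18, limma adjusted p = 0.214). Without Gr1lo replicate 3 the difference was -0.48 (adjusted p = 0.0242), without both arrays numbered 3 it was -0.51 (adjusted p = 0.0418), and on the control-centred scale it was -0.54 (adjusted p = 0.0264). Whether Siglecf was called thus depended on 1 array and on the scaling.

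Of 7 eosinophil markers measured, 6 lay at or below 2.77 on all 6 arrays. These were Epx, which encodes eosinophil peroxidase, Prg3, Il5ra, which encodes the interleukin-5 receptor alpha chain, Ccr3, the eotaxin receptor gene, Alox15 and Gata1. Epx read 2.11, 2.21 and 2.56 in Gr1hi cells, and 2.38, 2.20 and 2.39 in Gr1lo cells. The exception was Prg2, which encodes eosinophil major basic protein, at 5.55, 3.51 and 5.18 in Gr1hi cells, and 4.03, 3.54 and 4.23 in Gr1lo cells (limma adjusted p = 0.166). The Prg2 arrays overlapped between the groups. The mean log2 level of the list was 2.43 to 2.69 in Gr1hi and 2.29 to 2.48 in Gr1lo arrays, and the part of eosinophils in the Siglecf values was not tested. Of 6 basophil and mast cell markers tested, 2, Kit and Ms4a2, were lower in Gr1hi cells and 4 were not called. The mean log2 level of that list was 3.51 to 4.97 in Gr1hi arrays and 4.37 to 4.99 in Gr1lo arrays. In both groups the upper value was that of the array numbered 3. Mcpt8 read 7.74 and 7.44 on the Gr1hi and Gr1lo arrays numbered 3, and 3.13 to 5.47 on the others. Not every gene of the list did so, and Kit in Gr1lo cells was lowest on replicate 3 (8.12). The part of basophils and mast cells in the Siglec values was not tested.

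**Figure D2:**
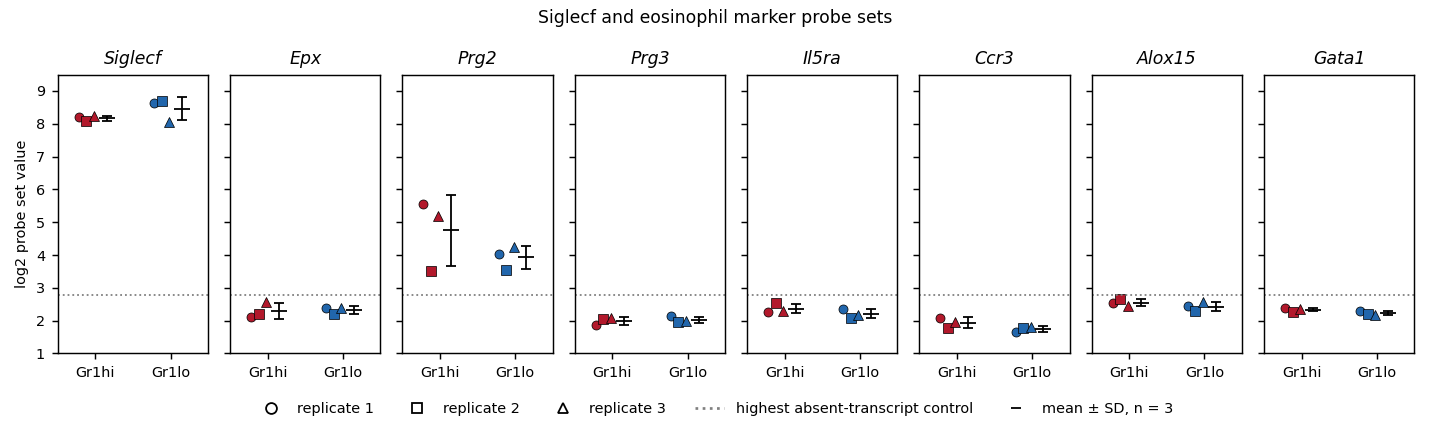
Log2 values of Siglecf and of 7 eosinophil marker genes on each array, with the mean and SD of 3 arrays beside the points and a dotted line at 2.77, the highest absent-transcript control. Siglecf lies above 8 on every array, Prg2 between 3.51 and 5.55, and the other 6 markers at or below the line. Heights of different genes are not comparable, since each probe set has its own response.

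Siglecf, Siglecg, Cd33 and Siglece lie close together on chromosome 7 in the RefSeq annotation of GRCm38.p6. Siglecf and Siglecg are next to each other, 9 protein-coding genes separate Siglecg from Cd33, and 4 separate Cd33 from Siglece. Within this group of neighbours Siglecg was lower, Cd33 and Siglece were higher and Siglecf was not called. Promoter windows from RefSeq (GRCm38.p6), each with 250 bases before and 50 bases after an annotated start, were found for 6 of the 7 members, 7 windows in all. Siglec1 was not among them. The windows of Cd33 and Siglecf are shown up to the start because they shared the longest runs of letters of any pair of members: 3 identical runs of at least 12 bases on the same strand, the longest of 16 bases, against at most 10 bases in any other pair. The Cd33 stretch is chr7:43533172-43533421 on the minus strand and the Siglecf stretch is chr7:43351091-43351340 on the plus strand, both written 5′ to 3′ with the shared runs in capitals.
Cd33: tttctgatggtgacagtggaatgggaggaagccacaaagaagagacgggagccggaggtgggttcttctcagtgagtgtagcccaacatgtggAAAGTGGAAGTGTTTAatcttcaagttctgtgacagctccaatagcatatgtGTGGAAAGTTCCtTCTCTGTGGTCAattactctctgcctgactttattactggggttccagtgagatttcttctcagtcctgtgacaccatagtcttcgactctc
Siglecf: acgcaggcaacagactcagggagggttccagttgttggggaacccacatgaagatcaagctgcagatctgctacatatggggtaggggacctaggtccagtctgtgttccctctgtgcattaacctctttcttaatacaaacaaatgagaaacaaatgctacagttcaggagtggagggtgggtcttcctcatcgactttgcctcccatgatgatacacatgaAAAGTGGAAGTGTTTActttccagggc
The run of 16 bases, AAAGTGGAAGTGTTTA, begins at position -157 from the annotated start in Cd33 and at -27 in Siglecf. The other two runs, GTGGAAAGTTCC and TCTCTGTGGTCA, begin at -105 and -92 in Cd33. In Siglecf they lie after the start, at 24 and 37, and so are not in the stretch shown. A set of 4 motifs was searched on both strands, with no overlap among their matches. The core GGAAGT of ETS factors, the family of PU.1, was found once in each of the Cd33, Siglecf and Siglech windows and in 23.8% of all 32851 windows. TGTGGT, the letters bound by RUNX factors, was found once in each of the same 3 members and in 16.8% of all windows. TTGCNNAA of C/EBP factors was found in Siglech only, against 10.8% of all windows, and GAAA followed after any pair of bases by GAAA, as in interferon response elements, in no member window, against 3.44% of all.

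Siglech, Siglec1 and Cd22 gave no signal that could be told from background. Siglech, which encodes a receptor of plasmacytoid dendritic cells that pairs with DAP12, read 2.76, 2.87 and 2.80 in Gr1hi cells, and 2.72, 2.70 and 2.88 in Gr1lo cells. These arrays overlapped (difference 0.04, SE 0.09, limma adjusted p = 0.701). Of 8 markers of plasmacytoid dendritic cells tested 2 were higher in Gr1hi cells and 6 were not called, and Pacsin1 and Flt3 were at or below 2.77 throughout. The 2 were Ly6d and Klra17. Klra17, a gene of the Ly49 receptor family, stood at 11.35 ± 0.18 in Gr1hi cells and 7.13 ± 0.26 in Gr1lo cells (SD, n = 3 each). The mean log2 level of the list was 4.07 to 4.41 in Gr1hi and 3.61 to 3.80 in Gr1lo arrays. Klra17, at a difference of 4.22, weighs heavily in this mean. The median difference of the 8 markers tested was 0.22.

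Siglec1 encodes sialoadhesin, or CD169, an adhesion receptor of macrophages that interferon induces. Its brightest probe set read 2.83, 2.69 and 2.66 in Gr1hi cells, and 2.45, 2.31 and 2.54 in Gr1lo cells. Only 1 of these 6 values exceeded 2.77. The groups did not overlap and differed by 0.29 (SE 0.09, limma adjusted p = 0.0219), a call lost in 8 of 18 alternatives. Its other two probe sets failed the filter, overlapped between groups and differed by 0.14 and -0.02. Of 13 macrophage markers measured 6 were tested, 2 were higher and 1 lower in Gr1hi cells, and C1qc, Cd163, Timd4, Mertk and Axl were at or below 2.77 on all arrays. The list had mean log2 levels of 3.12 to 3.47 in Gr1hi and 3.23 to 3.40 in Gr1lo arrays. Adgre1, which encodes the F4/80 antigen, was higher and the adhesion gene Vcam1 lower, at differences of 2.99 and -5.25 (limma adjusted p = 2.01e-06 and 2.17e-07).

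Cd22 encodes an inhibitory co-receptor of the B cell receptor. Its brighter probe set read 2.67, 2.80 and 2.81 in Gr1hi cells, and 2.60, 2.16 and 2.42 in Gr1lo cells. The groups were separated by less than 0.1, and 2 of the 6 values exceeded 2.77. The difference was 0.37 (SE 0.12, limma adjusted p = 0.0227), a call lost in 9 of 18 alternatives, among them the one without both arrays numbered 3 (adjusted p = 0.106). The second Cd22 probe set overlapped between groups at 1.96 to 2.31 in Gr1hi and 2.14 to 2.29 in Gr1lo arrays. Mag, the gene next to Cd22 and a family gene of myelin that is not among the 7, read 3.34, 3.21 and 3.44 in Gr1hi cells, and 2.81, 2.18 and 2.48 in Gr1lo cells (difference 0.84, SE 0.15, limma adjusted p = 0.00122). In Gr1lo cells Mag too was near the controls. Like Cd22, it passed the filter through its Gr1hi arrays and 1 Gr1lo array, so its call is no support for a change. Siglec15 was not analysed here.

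**Figure D3:**
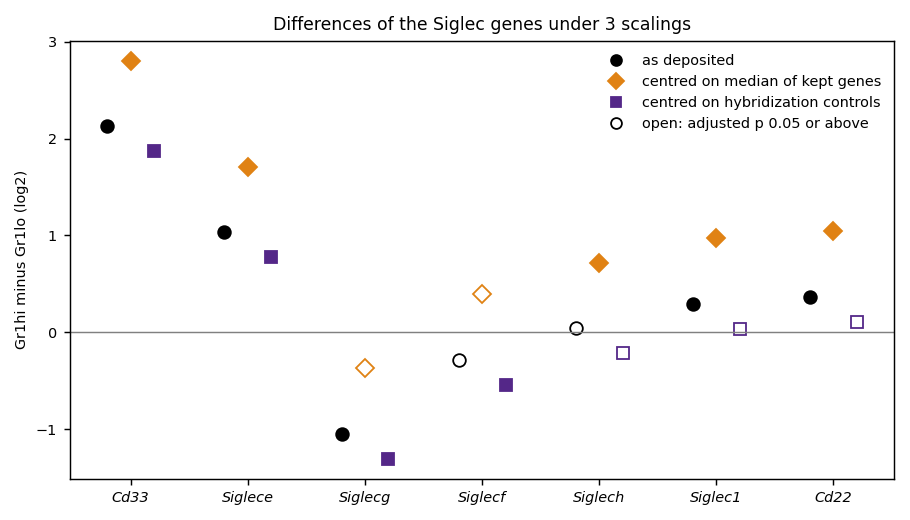
Gr1hi minus Gr1lo difference (log2) of each Siglec gene as deposited (circles), on the median-centred scale (diamonds) and on the control-centred scale (squares). Filled symbols mark a limma adjusted p under 0.05. Cd33 and Siglece are filled and above 0 on all 3 scales, Siglecg is below 0 on all 3 but open on 1, and Siglecf, the remaining gene above background, changes sign between scales.

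Of 15 kinases, phosphatases and adaptors tested that are known to act downstream of Siglecs, 8 were higher and 2 lower in Gr1hi cells. Of all genes tested, 24.6% were called higher and 31.8% lower. The median difference was 0.45 beside 0.03 over all genes tested. The count called higher was 12 on the median-centred scale and 7 on the control-centred scale. The largest differences among those higher were in Csk, a kinase that restrains Src family kinases (1.88), Fgr, a Src family kinase (1.56), Hcst, the gene of the adaptor DAP10 (1.41), and Syk, the kinase recruited by activating adaptors (1.33). Csk read 9.55, 9.37 and 9.66 in Gr1hi cells, and 7.95, 7.40 and 7.60 in Gr1lo cells (limma adjusted p = 1.14e-05). The 2 lower genes were Cblb, which encodes a ubiquitin ligase that Siglecs can engage (-1.20, adjusted p = 2.78e-04), and Ptpn11, which encodes the phosphatase SHP-2 (-0.55, adjusted p = 0.00228). Ptpn11 differed by 0.13 (adjusted p = 0.321) on the median-centred scale and by -0.19 (adjusted p = 0.174) with its probe sets averaged.

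Ptpn6 and Tyrobp, named after their values were seen, encode the phosphatase SHP-1 and the adaptor DAP12. Ptpn6 averaged 11.73 ± 0.15 in Gr1hi cells and 11.28 ± 0.04 in Gr1lo cells, and Tyrobp averaged 14.10 ± 0.02 in Gr1hi cells and 13.42 ± 0.12 in Gr1lo cells (SD, n = 3 each). Both were called higher, by 0.45 and 0.68 (limma adjusted p = 0.0026 and 2.22e-05), but Ptpn6 differed by 0.19 (adjusted p = 0.303) on the control-centred scale. The 5 genes not called were Src, Fyn, Cbl, Shc1 and Plcg2.

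Of 5 sialic acid genes tested that make or carry the activated sugar 4 were lower in Gr1hi cells and 1 was not called. Among all genes 31.8% were called lower. Cmah, which modifies the sugar and was higher, is not counted among these 5. Of 15 sialyltransferases tested 4 were higher and 11 were not called, a share called higher close to the 24.6% of all genes. Neither subgroup was a planned comparison. In all, of 29 genes tested 5 were higher, 6 lower and 18 not called, with a median difference of 0.02. These shares lie below the 24.6% and 31.8% of all genes that were called, so calls were not frequent in this list. Of the 6 lower genes, 4 make or carry the activated sugar. Nanp, which encodes the phosphatase of the synthesis pathway, differed by -3.56, and Nans, which encodes the synthase before it, by -2.91 (limma adjusted p = 5.50e-06 and 3.06e-05). Slc35a1, the gene of the transporter that brings the activated sugar into the Golgi, read 5.46, 5.09 and 5.45 in Gr1hi cells, and 7.64, 7.92 and 7.35 in Gr1lo cells (difference -2.30, limma adjusted p = 1.25e-05). Gne, the first enzyme of the pathway, named after its value was seen, differed by -1.38 (adjusted p = 0.00168). Npl, whose product degrades free sialic acid, differed by -1.82 and stood at 2.72 ± 0.07 in Gr1hi cells (SD, n = 3), within the level of absent transcripts. The sixth was Siae, which encodes an esterase of acetylated sialic acids (-0.47), and its direction turned to 0.21 on the median-centred scale.

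Of the 5 higher genes, 4 were sialyltransferases. St3gal6, which caps galactose on glycoproteins and glycolipids, read 9.39, 9.16 and 9.16 in Gr1hi cells, and 3.98, 3.09 and 2.89 in Gr1lo cells. The arrays were far apart, at a difference of 5.92 (SE 0.28, limma adjusted p = 3.08e-07). St8sia4, which makes polysialic acid chains, averaged 11.52 ± 0.06 in Gr1hi cells and 8.24 ± 0.49 in Gr1lo cells, and St3gal4, which contributes to selectin ligands on leukocytes, averaged 8.19 ± 0.11 in Gr1hi cells and 6.38 ± 0.23 in Gr1lo cells (SD, n = 3 each; adjusted p = 1.72e-06 and 1.73e-05). St6gal1, which makes the linkage that CD22 prefers, was higher by 0.93 (adjusted p = 0.00192) and averaged 2.74 ± 0.28 in Gr1lo cells (SD, n = 3), at the level of absent transcripts. The fifth gene was Cmah, which encodes the hydroxylase that turns the acetyl form of sialic acid into its glycolyl form, higher by 2.88 (adjusted p = 5.70e-04). With the probe sets of a gene averaged, the differences were smaller, at 2.70 for St3gal6, 1.89 for St8sia4, 1.73 for Cmah, 0.48 for St6gal1 and -0.82 for Gne, and each kept its call. Without both arrays numbered 3, St3gal5, a sialyltransferase gene of ganglioside synthesis, was also called higher (0.66, adjusted p = 0.0259). Apart from Siae, these 11 genes kept their direction on all 3 scales. The activating enzyme gene Cmas read 9.16, 9.91 and 9.88 in Gr1hi cells, and 9.80, 9.97 and 10.02 in Gr1lo cells and was not called (difference -0.28, adjusted p = 0.255). Its difference was 0.40 on the median-centred scale.

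**Figure D4:**
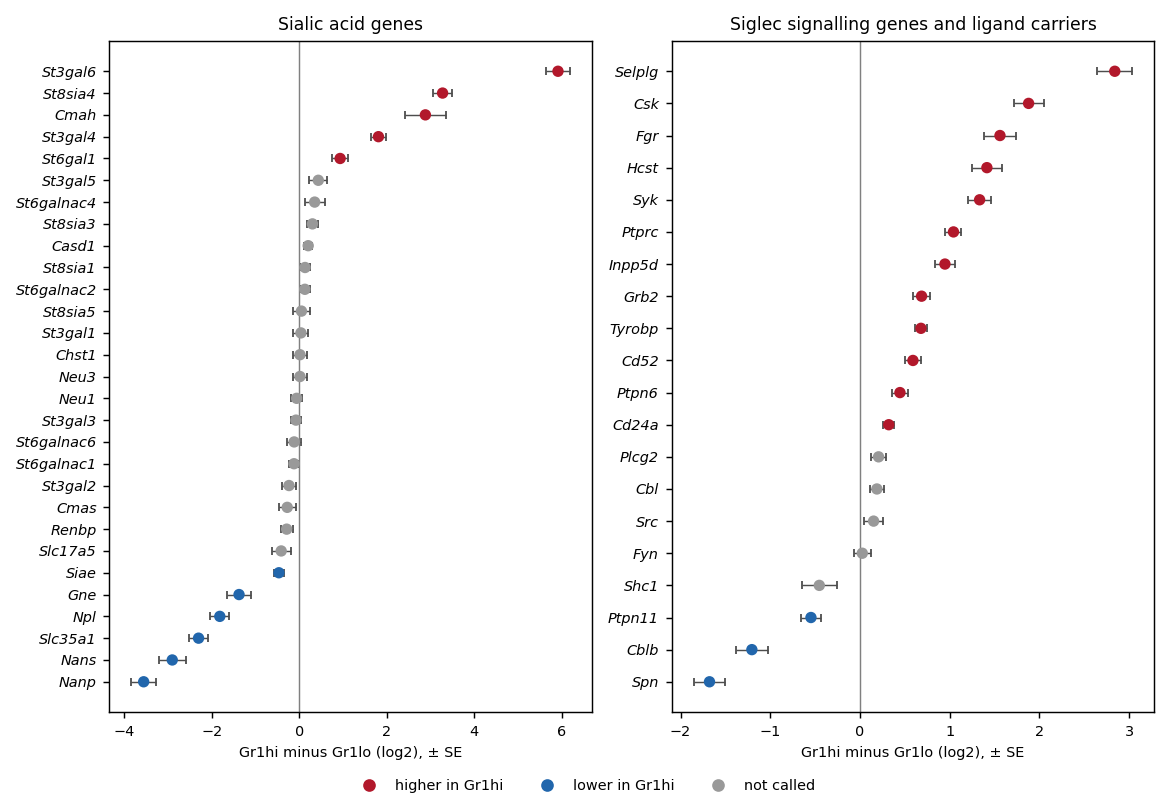
Gr1hi minus Gr1lo difference (log2) with its SE for the 29 sialic acid genes tested (left) and for 15 Siglec signalling genes and 5 ligand carriers tested (right), ordered by size. Red marks genes called higher and blue genes called lower in Gr1hi by limma at an adjusted p under 0.05, and grey genes were not called. St3gal6 stands furthest to the right at 5.92 and Nanp furthest to the left at -3.56.

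Of 7 genes of proteins that carry Siglec ligands, 5 were tested, 4 were higher and 1 was lower in Gr1hi cells. Calls were common over all genes tested, at 24.6% higher and 31.8% lower. Muc1 and Lgals3bp lay at or below 2.77 on all arrays. Selplg, the gene of the selectin ligand PSGL-1, was higher by 2.84, Ptprc, the gene of CD45, by 1.04, Cd52 by 0.59 and Cd24a, the gene of the protein that Siglec-G binds, by 0.32 (limma adjusted p = 2.49e-06, 8.64e-06, 3.72e-04 and 0.0016). Cd24a stood at 14.02 ± 0.08 in Gr1hi cells and 13.70 ± 0.07 in Gr1lo cells (SD, n = 3 each), near the top of the arrays' range, and differed by 0.06 (adjusted p = 0.687) on the control-centred scale. Spn, the gene of sialophorin or CD43, which sialoadhesin can bind, read 9.57, 8.80 and 9.08 in Gr1hi cells, and 10.90, 10.84 and 10.75 in Gr1lo cells (difference -1.68, limma adjusted p = 3.33e-05).

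Genes with the values most like those of the members were found by the root mean square distance over 6 arrays, after each gene was centred on its own mean. For Cd33 these were Pbxip1 (distance 0.0446) and Trim34a (0.0609), for Siglece Ube4a (0.0982) and Gcc1 (0.118), and for Siglecg Rbm45 (0.0845) and Pex3 (0.089). For the 2 called members at background level they were Pfdn5 (0.0261) and Tmem252 (0.0263) beside Siglec1, and Slc9a3r1 (0.0428) and Ppara (0.043) beside Cd22.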

How the data were processed

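RNA from sorted cells (100 ng per sample) was biotin-labelled and hybridized to expression arrays (per the labels' protocols). What the authors deposited is 1 log2 value per probe set and array, computed by GCRMA according to the submitters' processing notes; its version and options are not stated there. They ran from 0.87 to 15.01 over 45101 probe sets, with array medians of 2.86 to 2.94 and no missing value; arrays have no read depth, and their number limits the precision. GCRMA usually equalizes array distributions and compresses low values, so differences near the lowest values are uncertain in size.

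Groups came from the sample titles. Probe sets were named through the platform annotation table (64 controls, 34945 with 1 symbol, 932 with several, 9160 with none). Each gene took its probe set with the highest mean. Genes with at least 3 of 6 arrays above that array's 40th percentile were kept (12739 of 18193). Gr1hi was compared with Gr1lo in limma 3.58.1 (R 4.3.3; eBayes with trend, two-sided, Benjamini-Hochberg over all tested genes, threshold 0.05; 4 residual degrees of freedom). No called list gene had another probe set called the other way. Simulated data for this comparison held 12739 genes, with 50 changed per size. On them the fit recovered 20%, 74%, 96% and 100% of log2 changes of 0.5, 1, 2 and 4, and called 8 unchanged genes. Many more genes were called in the real data (3128 higher and 4051 lower), so these rates need not hold there. Figures were drawn with matplotlib 3.10.9 in Python 3.11.15.

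All 7 members were named with every probe set. Of the sialic acid and signalling lists, the 4 called genes with the largest differences in each direction were named, with any gene needed to complete a count of 5 or fewer, and all tested ligand carriers. For each called member, the 2 genes at the smallest distance were named. Members, lists and markers were chosen with earlier results of these data known. Some listed genes were not analysed here. The alternatives were other filters, probe set rules, variance models, normalizations and centrings, a stricter threshold of 0.01, testing for more than a 1.5-fold change, a replicate block, weighted arrays, and arrays left out.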

Additional observations from a re-analysis of the deposited data

How the results depend on the processing

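Over 20 alternatives the Cd33 call held in all, Siglece and Siglecg kept their direction in all, and the calls on Siglec1 and Cd22 were often lost. Without a filter, or with eBayes made robust, the count of members did not move by over 1.5 times. Of 4 Siglec members (and 4 probe sets) called higher, 2 were left with a filter at the 60th percentile, with eBayes without trend, on the control-centred scale and at a threshold of 0.01. With probe sets averaged per gene 2 members were left, and against a 1.5-fold change 1 member and 1 probe set. Leaving out 1 array gave 2 to 4 members and probe sets called higher, with 2 without Gr1lo replicate 2, and 1 to 2 called lower, with 2 without Gr1lo replicate 3. Of 1 member (and 1 probe set) called lower, 0 were left on the median-centred scale and against a 1.5-fold change, while 2 were called lower on the control-centred scale and without both arrays numbered 3, where Siglecf joined Siglecg.

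The count of sialic acid genes called higher was 5, and 21 on the median-centred scale; the count called lower was 6, and 10 on the control-centred scale. Leaving out 1 array gave 5 to 6 higher and 6 to 7 lower. Of 8 signalling genes called higher 5 were left against a 1.5-fold change, and of 2 called lower 1 was left there and on the median-centred scale; leaving out 1 array gave 8 and 2. The median difference of all genes was 0.03 as deposited, 0.70 when median-centred and -0.23 when control-centred. On the median-centred scale, among genes called on either scale, St3gal2 (0.44), St3gal3 (0.60), St6galnac1 (0.55), St6galnac6 (0.56), Neu1 (0.61), Renbp (0.39), Siae (0.21) and Ptpn11 (0.13) turned from below to above 0, as did Siglecf (0.39), Cmas (0.40), Slc17a5 (0.26) and Shc1 (0.22), which were called on neither, as the shift itself does to any gene with a small negative difference. Over all genes 3128 were called higher and 4051 lower, against 8354 and 2313 when median-centred, 1861 and 4848 when control-centred, and 1355 and 2419 against a 1.5-fold change.

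The labels number the replicates alike in both groups. Same-numbered arrays deviated together by correlations of 0.166, 0.004 and 0.145 over genes, and differently numbered arrays by -0.188 to 0.044. The values for numbers 1 and 3 lay above those of every differently numbered pair, and the value for number 2 did not. The numbers were therefore not taken to pair all samples. Both arrays numbered 3 do share a high Xist value, which the other 4 lack. With the replicate block 4 members were called higher and 1 lower, 5 and 6 sialic acid genes, and 8 and 2 signalling genes; it changed none of these counts, and over all genes 3038 were called higher and 4021 lower.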
